A study of Mus musculus with 33 samples.

Results

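The comparison described here asks what the tumour transcriptome held when an antibody against PD-1 was added to the kinase inhibitor ESK981. It rests on 16 of the 33 RNA-seq tumours in the series: 8 tumours of 5 mice given both agents, called the combination, and 8 tumours of 5 mice given ESK981. Members were taken by their sample titles, and tumours of 1 ear tag were averaged, so the replicate was the mouse. All mice were male FVB with subcutaneous implants of Myc-CaP, a MYC-driven prostate cancer line of the mouse, in both flanks. Each group received ESK981 by gavage at 15 mg/kg on 5 days per week from a tumour volume of 50 mm3. Per the labels, mice received 200 µg of anti-PD-1 or of isotype control into the peritoneum 3 times per week, which makes the ESK981 group the one with isotype. Tumours were collected after 3 weeks. ESK981 is an oral inhibitor of several kinases that also inhibits PIKfyve, a lipid kinase of endosomes and lysosomes. The host mice were immunocompetent, and the model is 1 cell line, so no spread between tumour lines was measured. The other 2 groups of 5 mice, vehicle (10 tumours) and anti-PD-1 (7 tumours), entered the same statistical fit and are cited where their levels help to read a value.

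PD-1 is an inhibitory receptor on activated T cells. Its ligands PD-L1 and PD-L2, encoded by Cd274 and Pdcd1lg2, are carried by tumour cells and myeloid cells, and antibodies that block the receptor release T cells from this inhibition. Activated T cells and natural killer cells secrete interferon gamma, which acts on surrounding cells to induce guanylate-binding proteins, chemokines, antigen presentation genes and PD-L1 itself. The gene lists below follow this chain from lymphocytes to interferon targets and then to the tumour and its stroma.

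In the bulk tumours as a whole, no gene passed the test for a difference between the combination and ESK981. With limma, 0 of 15846 genes had an adjusted p under 0.05 in either direction (0% of genes tested), and the smallest adjusted p, shared by 50 genes, was 0.325. Without adjustment, 544 genes were higher (3.43%) and 682 were lower (4.3%) at p under 0.05. This split turned with the scaling, to 1000 higher and 628 lower after median-of-ratios scaling and 954 and 484 after scaling to protein-coding genes, with 0 called in both. It also turned without combination 5R, to 934 higher and 212 lower, with an all-gene median of 0.02 and 0 called. The genes with the smallest p on the higher side include Ccl5, Gzmb and Cd274, which were on average 2.78-fold to 4.32-fold higher in the combination. Those on the lower side include Cps1 and Igfbp5, 2.61-fold and 2.69-fold lower. The median log2 fold change over all genes was -0.09, and 31.9% of genes lay above 0. Levels are mean FPKM (fragments scaled by exon length and library total), and fold changes are differences of mean log2(FPKM + 0.5), which understate the change of low genes. In bulk tumours, fewer cells of a type and less RNA per cell cannot be told apart.

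Several libraries stood apart from their own group, and this bears on every value below. Whether the labels of combination 1L and ESK981 1L are right was not tested, and the values of mouse 1 in both groups rest on them. Over 11639 protein-coding genes, centred on the 16 tumours, the library labelled combination 1L (mouse 1, left flank) correlated best with ESK981 5R (r = 0.67) and then with ESK981 3L (r = 0.64). Its r with the other flank of the same mouse was -0.42. Its mean r was -0.29 with its own group and 0.24 with the ESK981 group. The library labelled ESK981 1L correlated best with combination 4L (r = 0.59) and 4R (r = 0.57), and its r with its own other flank was -0.28. ESK981 1R and 2R, from different mice, resembled each other (r = 0.90) but differed beyond sampling noise, with a mean chi-square of 7.40 per gene. Their Mki67, a proliferation marker, was 2.80 and 2.70 FPKM against 25.9 to 36.1 in the other 6 ESK981 tumours. Combination 5R carried the most ribosomal-RNA-like sequence of the 16 (500377 FPKM).

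**Figure D1:**
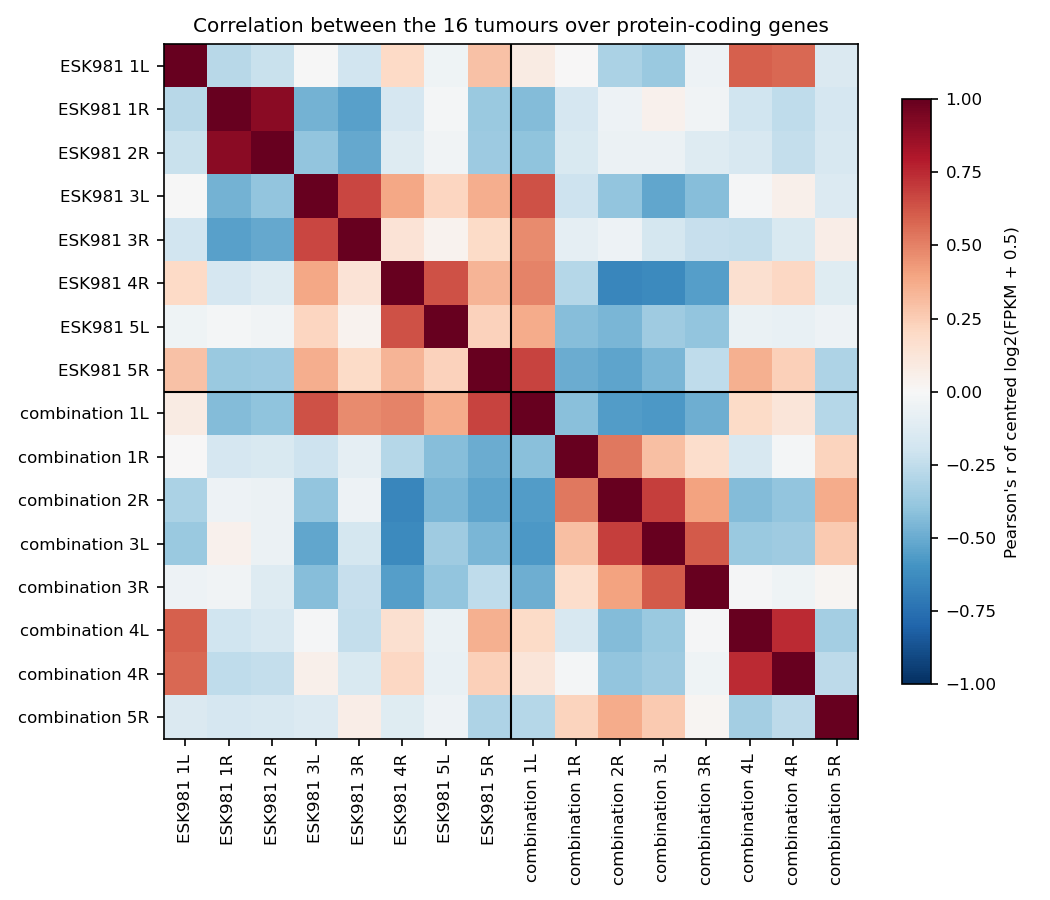
Pearson's r between the 16 tumours over 11639 protein-coding genes, on log2(FPKM + 0.5) centred over these tumours (colour, -1 to 1; lines divide the groups). Combination 1L is red against ESK981 3L to 5R and blue against 5 of the other 7 tumours of its group (pale red against 4L and 4R, r = 0.19 and 0.12), and ESK981 1L is closest to combination 4L and 4R.

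Depth was similar in both groups, at 1.81e+07 to 3.24e+07 fragments in ESK981 tumours and 1.78e+07 to 2.48e+07 in combination tumours. Ribosomal-RNA-like genes took 2.31% to 14.7% of fragments in ESK981 tumours (median 3.49%) and 2.88% to 16.7% in combination tumours (median 5.79%). All 16 libraries name 1 flow cell, but the last number of the library name nearly follows the group. It is 5 in 7 of 8 combination tumours and in no ESK981 tumour, so that number and the treatment cannot be told apart. The only combination tumour that shares its number, 4, with ESK981 tumours (6 of them) is 1L, and against those 6 it was lower in 23 of the 30 named genes that were higher in the full comparison. In the tumour tissue check, the epithelial genes Krt8, Krt19, Cldn3, Cldn4, Hoxb13 and Foxa1 were present in all 16 tumours, with Foxa1 at 33.4 to 56.2 FPKM. Epcam, Krt18, Cdh1, Cldn7 and Esrp1 were at or near 0.

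Ccl5 (chr11:83525778-83530518 in GRCm38), a chemokine made by activated T cells and natural killer cells, had the smallest p. In the 8 ESK981 tumours it was 5.65 and 2.99 FPKM in mouse 1, 1.38 in mouse 2, 1.78 and 3.51 in mouse 3, 1.73 in mouse 4, and 1.80 and 1.72 in mouse 5. In the combination it was 0.999 and 20.3 in mouse 1, 28.0 in mouse 2, 41.1 and 19.4 in mouse 3, 5.45 and 8.35 in mouse 4, and 5.54 in mouse 5. Tumour 1L was thus the lowest of all 16, and combination mice 2 and 3 were the highest. Averaged over tumours of a mouse, ESK981 was 2.37 ± 1.19 FPKM and the combination 16.3 ± 11.9 (SD, n = 5 mice each), and the mice of the groups did not overlap. The log2 fold change was 2.11 ± 0.42 (SE, 95% interval 1.24 to 2.98, limma adjusted p = 0.325). Without tumour 1L it was 2.49, with an adjusted p of 0.0434 in limma, the only gene called then. That tumour was left out after its low value was seen, so this result describes these tumours and is not a test.

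Gzmb encodes granzyme B, a protease that cytotoxic lymphocytes release into target cells. By mouse it was 0.512, 0.0876, 0.440, 0.254 and 0.279 FPKM in ESK981 and 1.48, 2.85, 4.29, 1.51 and 0.619 in the combination. No ESK981 mouse reached the lowest combination mouse. The log2 fold change was 1.48 ± 0.32 (limma adjusted p = 0.325). Cd3e, part of the T cell receptor complex, was 0.475, 0.202, 0.518, 0.126 and 0.295 FPKM by mouse in ESK981 and 0.805, 1.90, 2.53, 1.01 and 0.431 in the combination. Its lowest combination mouse, 5, lay inside the ESK981 range, and its log2 fold change was 1.04 ± 0.27. Pdcd1, which encodes the antibody's own target, was 0.288, 0.279, 0.295, 0.0934 and 0.134 FPKM in ESK981 and 0.523, 1.75, 1.47, 0.610 and 0.294 in the combination. By mean FPKM the lowest combination mouse lay just below the highest ESK981 mouse, and on the log scale of the fit the mice did not overlap. Pdcd1 rested on 3 to 20 fragments per ESK981 tumour and 4 to 71 per combination tumour, a shallow base for a fold change of 0.87 ± 0.26 (log2).

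**Figure D2:**
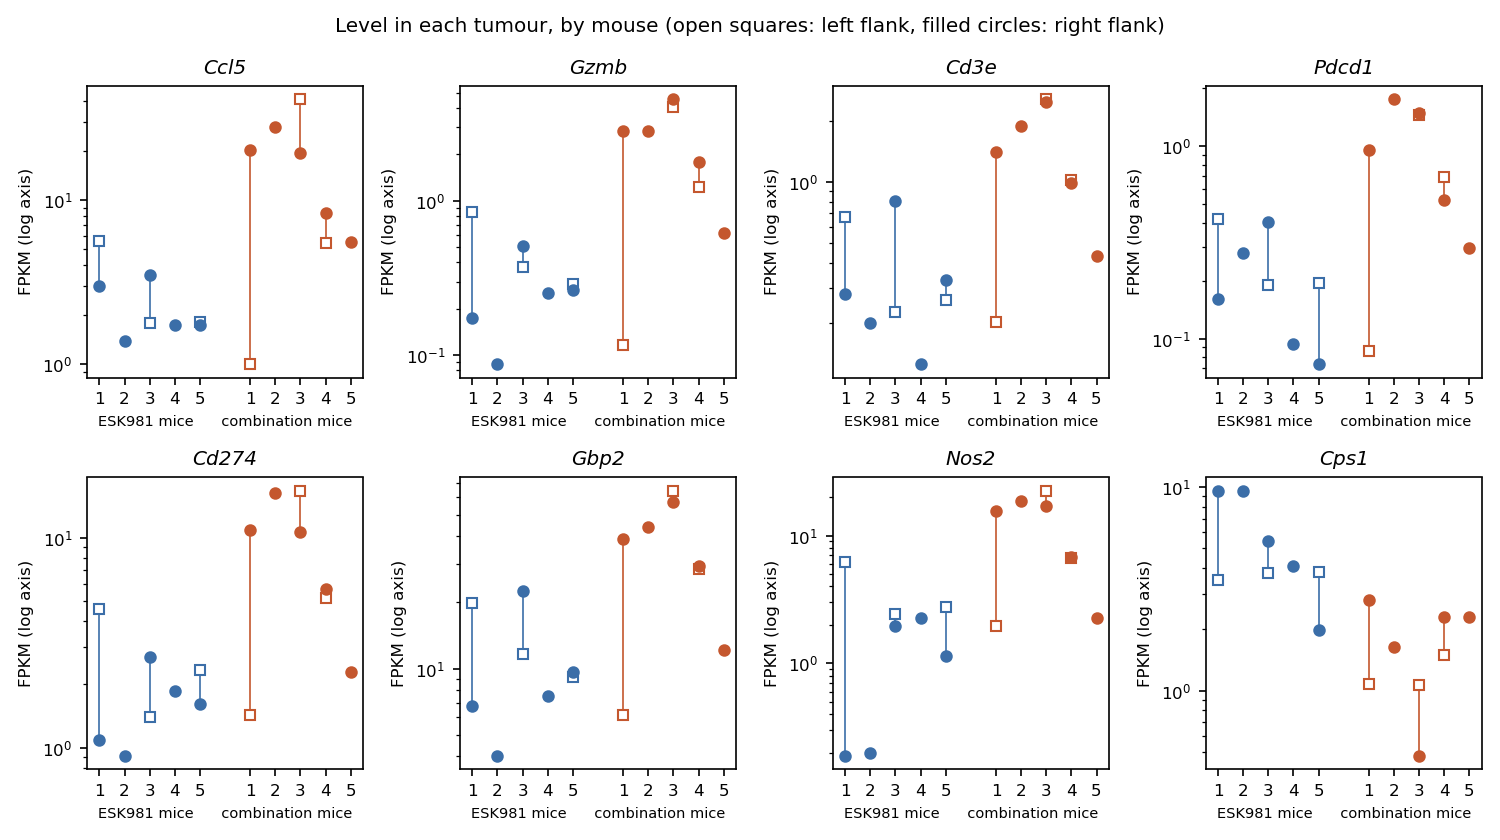
FPKM in each of the 16 tumours (log axis), with a line joining the flanks of a mouse. In 7 panels combination tumour 1L (first open orange square) sits among or below the ESK981 tumours while its other flank lies above every ESK981 tumour. In Cps1 every combination tumour but 1R, 4R and 5R lies below the lowest ESK981 tumour, at 1.98 FPKM.

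The T cell list held 18 genes of the receptor complex and its signalling, of which 13 had enough signal to be tested. All 13 lay above 0, 10 at an unadjusted p under 0.05 and 0 after adjustment, with a median log2 fold change of 0.63. Among 10 tested cytotoxic and natural killer genes, 9 were nominally higher and 0 lower (median 0.89), including perforin (Prf1, 1.26 ± 0.30) and Gzmb. Of 6 tested inhibitory receptors 5 were nominally higher (median 0.63), among them Ctla4 at 0.58 and Havcr2, which encodes TIM-3, at 0.67. Cd8a, the cytotoxic T cell co-receptor, was 0.68 ± 0.23 and Cd4, the helper T cell co-receptor, 0.42 ± 0.18. The 4 tested regulatory T cell genes were nominal in neither direction (median 0.02), and Foxp3, which defines these cells, never passed 0.410 FPKM in these tumours and was not tested. The 4 tested B and plasma cell genes had a median of -0.11, and their immunoglobulin gene Igkc ranged from 3.26 to 96.0 FPKM over ESK981 mice and from 4.62 to 192 over combination mice. Summed over the T cell list, ESK981 tumours held 2.65 to 7.03 FPKM and combination tumours 2.13 to 21.9.

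Interferon gamma targets and MHC class II genes had the highest list medians, 1.17 and 1.16, and their order turned between settings (1.40 and 1.46 without combination 5R). Of the 20 interferon gamma genes, all tested, 20 lay above 0 and 17 were nominally higher, with a median of 1.17 against -0.09 over all genes, and 0 passed after adjustment. The mean log2(FPKM + 0.5) over the list was 2.64, 1.68, 1.38, 2.08, 2.54, 1.69, 1.90 and 1.87 in ESK981 tumours 1L, 1R, 2R, 3L, 3R, 4R, 5L and 5R. It was 1.59, 3.39, 3.53, 3.95, 3.80, 2.82, 2.92 and 1.94 in combination tumours 1L, 1R, 2R, 3L, 3R, 4L, 4R and 5R. Combination 1L and 5R lay within the ESK981 range and the other 6 combination tumours above it. Counted by gene, 1R, 2R, 3L and 3R exceeded the highest ESK981 tumour in 19 or 20 of the 20 genes, 4L in 15 and 4R in 17, while 1L and 5R did so in 0. Tumour 1L was below the ESK981 median in 19 of 20. ESK981 1L was the highest ESK981 tumour in 15 of 20.

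Gbp2, an interferon-induced guanylate-binding protein, was 13.3, 4.01, 17.1, 7.51 and 9.39 FPKM by mouse in ESK981 and 22.5, 44.1, 60.6, 28.7 and 12.1 in the combination. Only mouse 5 of the combination fell inside the ESK981 range. The log2 fold change was 1.56 ± 0.40 (limma adjusted p = 0.325). Irf1, the transcription factor induced first in this pathway, was 8.47 ± 2.61 FPKM in ESK981 and 17.7 ± 8.08 in the combination (SD, n = 5), with overlapping mice and a log2 fold change of 0.93 ± 0.30. The immunity-related GTPases Igtp and Iigp1 had log2 fold changes of 1.64 ± 0.46 and 1.59 ± 0.43. The transcript of interferon gamma itself, Ifng, was low, at 0.153 ± 0.143 FPKM in ESK981 and 0.840 ± 0.548 in the combination.

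The promoters of 3 of these genes are printed because motifs known from interferon-induced promoters can be read in them. They are the 250 bases before the transcription start from RefSeq (GRCm38.p6), and capitals mark a match. The motifs searched on both strands were the gamma-activated site, TTCNNNGAA, and a core of the interferon-stimulated response element, GAAA, any 2 bases and GAAA again, whose matches may overlap.
Irf1 promoter, chr11:53769764-53770013, plus strand: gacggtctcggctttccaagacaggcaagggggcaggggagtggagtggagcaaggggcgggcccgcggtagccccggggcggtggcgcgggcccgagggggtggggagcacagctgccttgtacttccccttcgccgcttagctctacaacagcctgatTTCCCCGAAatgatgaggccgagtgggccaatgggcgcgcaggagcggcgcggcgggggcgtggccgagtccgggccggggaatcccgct
Gbp2 promoter, chr3:142620413-142620662, plus strand: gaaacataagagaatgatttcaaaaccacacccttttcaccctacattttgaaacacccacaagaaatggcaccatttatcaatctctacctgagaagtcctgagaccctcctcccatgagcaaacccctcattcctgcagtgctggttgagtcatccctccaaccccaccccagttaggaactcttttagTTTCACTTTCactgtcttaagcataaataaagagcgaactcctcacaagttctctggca
Cxcl10 promoter, chr5:92348890-92349139, minus strand: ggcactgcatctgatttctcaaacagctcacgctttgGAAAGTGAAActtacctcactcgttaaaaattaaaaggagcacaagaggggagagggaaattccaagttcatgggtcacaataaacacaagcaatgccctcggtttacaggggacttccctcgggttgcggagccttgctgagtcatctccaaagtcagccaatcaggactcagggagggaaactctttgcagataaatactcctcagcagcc
The Irf1 window, the one of its 2 RefSeq windows with a match, holds a gamma-activated site 90 bases before the start. Gbp2 holds the response element core on the other strand 59 bases before the start and Cxcl10 holds it 213 bases before. Of the 20 interferon gamma genes, 13 had a promoter in the table, of which 5 held a gamma-activated site (38.5%, against 8.13% of 27025 genes) and 9 the response element core (69.2%, against 3.46%). These are matches of letters in genes chosen as interferon targets, and no binding was measured. Among 15 type I interferon genes with a promoter, 3 held the site (20%) and 7 the core (46.7%). Among 12 MHC class I genes 1 held the site and 2 the core, and among 6 MHC class II genes 1 and 1. Of the 10 genes of smallest p on the higher side, 5 had a promoter, of which 0 held the site and 1 the core.

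Type I interferon genes centred near 0. Of 22 tested, 2 were nominally higher, 1 was nominally lower and 10 lay above 0, with a median of -0.01. Zbp1, a sensor of nucleic acids, was 0.68 and Oasl2, an antiviral gene, 0.46, whereas Isg15, a ubiquitin-like antiviral protein, was -0.44. The difference between the 2 lists was not tested.

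Antigen presentation genes lay mostly above 0. All 8 genes of MHC class II presentation were nominally higher (median 1.16). H2-Ab1, a class II chain, was 28.1, 14.9, 30.4, 16.3 and 17.8 FPKM by mouse in ESK981 and 44.9, 135, 106, 32.9 and 20.7 in the combination, with only mouse 5 inside the ESK981 range (1.29 ± 0.39, limma adjusted p = 0.492). Cd74, the invariant chain, was 1.25 ± 0.37, and the protease cathepsin S (Ctss) that cleaves it 1.29 ± 0.39. Of 13 class I genes, 9 were nominally higher and 11 lay above 0 (median 0.66). The peptide transporter Tap1 was 1.04 ± 0.35 and the immunoproteasome subunit Psmb9 1.03 ± 0.39. The class I heavy chain H2-K1 was 0.78 ± 0.34 and its light chain B2m 0.35 ± 0.33, an estimate whose 95% interval, -0.34 to 1.04, spans 0.

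Cd274, which encodes PD-L1, was 2.84, 0.914, 2.05, 1.85 and 1.97 FPKM by mouse in ESK981 and 6.14, 16.3, 13.7, 5.42 and 2.28 in the combination. The groups met only at the extremes, combination mouse 5 lying below ESK981 mouse 1. The log2 fold change was 1.66 ± 0.39 (limma adjusted p = 0.325). Pdcd1lg2, encoding PD-L2, gave nearly the same value, 1.66 ± 0.42, with means of 0.582 ± 0.535 and 3.62 ± 3.43 FPKM (SD, n = 5). Cd80, a costimulatory ligand, was 0.54. Across 12 tested checkpoint and costimulatory ligands 4 were nominally higher (median 0.29).

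Chemokines and myeloid genes also lay mostly above 0. Of 9 tested CC chemokines 6 were nominally higher (median 1.05): Ccl2, a monocyte attractant, was 1.37 ± 0.514 FPKM in ESK981 and 4.88 ± 2.64 in the combination (log2 1.41 ± 0.31), without overlap of mice, and Ccl4 was 1.32 and Ccl3 1.17. Cxcl9, an attractant of T cells, was 1.19 ± 0.38 and Cxcl10, its relative, was 0.575 ± 0.143 FPKM in ESK981 and 1.91 ± 1.14 in the combination, without overlap. The inflammatory list had 7 of 10 nominally higher (median 0.79). It includes Nos2, the inducible nitric oxide synthase, at 3.21, 0.197, 2.20, 2.25 and 1.94 FPKM by mouse in ESK981 and 8.80, 18.6, 19.7, 6.77 and 2.27 in the combination. By mean FPKM combination mouse 5 lay below ESK981 mouse 1, but on the log scale of the fit, where the fold change was 2.18 ± 0.46, the mice did not overlap. ESK981 tumours 1R and 2R were the lowest at 0.189 and 0.197. Il1b, an inflammatory cytokine, was 1.14 ± 0.32 without overlap.

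Of 14 macrophage genes 4 were nominally higher, 13 lay above 0 and the median was 0.51. Lyz2, lysozyme, was 1.53 ± 0.47 and Msr1, a scavenger receptor, 0.95, while Adgre1, the F4/80 marker, was 0.33 ± 0.29. Arg1, the arginase of alternatively activated macrophages, was 0.22 ± 0.23 and that list had 1 of 8 nominally higher, Chil3, whose combination values ran from 0.851 to 53.4 FPKM with the highest in mouse 2. Complement had 3 of 8 nominally higher (median 0.45), led by C3 at 1.59. The 3 tested dendritic cell genes had a median of 0.57 with 2 nominal. Neutrophil genes were mixed, 2 of 7 nominal and a median of 0.04, and mast cell genes had 0 of 4 (median 0.15).

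**Figure D3:**
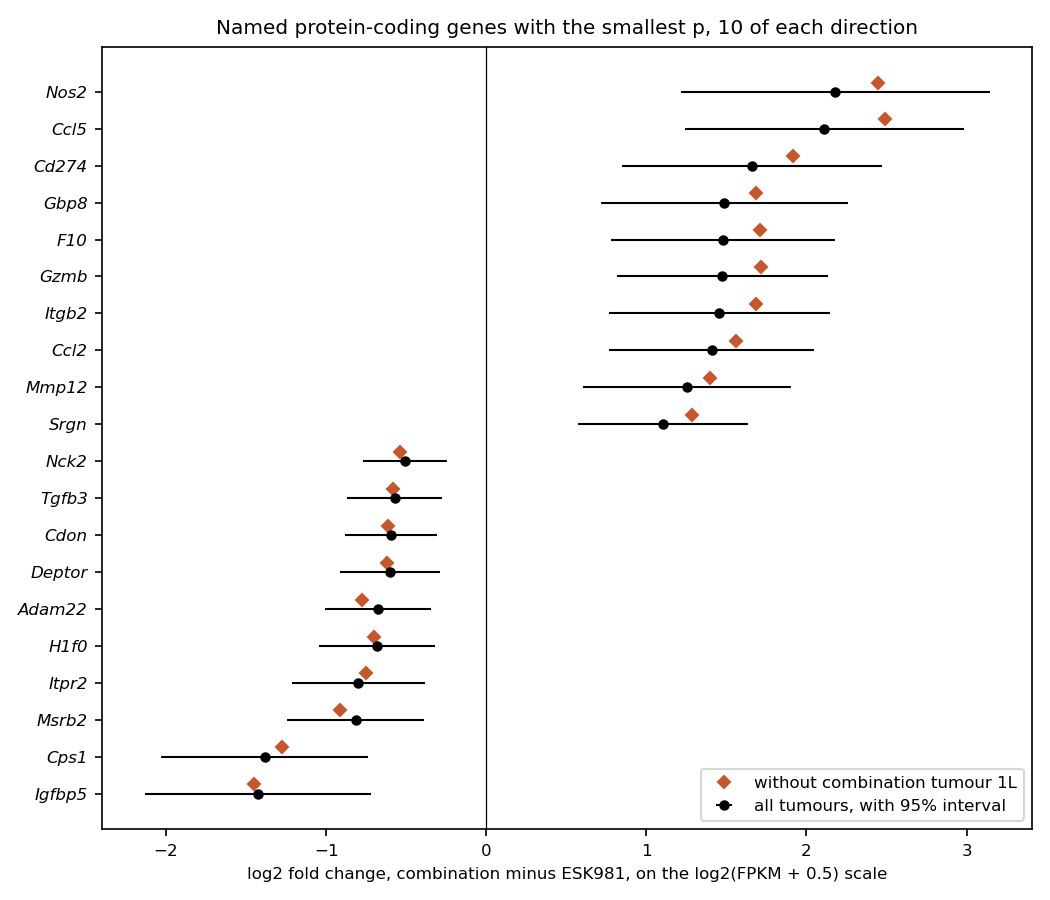
Log2 fold change of the combination minus ESK981 with its 95% interval for the named genes of smallest p (black), and the value without combination tumour 1L (orange). All 10 genes above 0 move further from 0 without that tumour, while Cps1 moves from -1.38 to -1.28. The tumour was left out after its values were seen.

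A measure of RNA composition went the same way as these immune lists. All 13 mitochondrially encoded genes lay above 0, 5 were nominally higher and their median was 0.66. The mean log2(FPKM + 0.5) of the mitochondrial list was 5.90 to 7.48 in ESK981 tumours, and 8.31, 8.12 and 7.93 in combination 1R, 2R and 3L, the 3 highest of the 16. In combination 1L and 5R, the 2 with the lowest interferon gamma means of their group, it was 6.61 and 6.61. The part that this measure has in the immune values was not tested. A scaling to protein-coding genes keeps these 13 genes in the total, so it cannot separate this measure from the immune values. Under that scaling the mitochondrial median was 0.79. The interferon gamma median was 1.28, and all 20 of its genes were nominally higher.

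On the lower side, Cps1, the first enzyme of the urea cycle, was 6.55, 9.56, 4.60, 4.09 and 2.90 FPKM by mouse in ESK981 and 1.93, 1.64, 0.773, 1.91 and 2.29 in the combination, with no overlap. Its log2 fold change was -1.38 ± 0.31 (limma adjusted p = 0.325). In this gene tumour 1L (1.08 FPKM) lay with the rest of its group. Igfbp5, an insulin-like growth factor binding protein, was 460, 660, 145, 209 and 166 FPKM by mouse in ESK981 and 83.3, 90.6, 127, 109 and 58.6 in the combination. Its mouse means did not overlap either (-1.43 ± 0.34), but single tumours did. ESK981 3R held 9184 Igfbp5 fragments of 1.81e+07, and combination 3L held 16488 of 1.96e+07. The 2 highest ESK981 mice held tumours 1R and 2R, at 796 and 660 FPKM. The others of the 10 named had smaller estimates, from -0.51 (Nck2, an adaptor protein) to -0.81 (Msrb2, a mitochondrial methionine sulfoxide reductase). They include Cdon, a cell surface receptor of hedgehog signalling, at -0.59 ± 0.14, Itpr2, a calcium release channel, at -0.80 ± 0.20, and Deptor, an inhibitor of mTOR, at -0.60 ± 0.15. Of the 10 genes named on the lower side 7 had no overlap of mice, and on the higher side 6 of 10 had none. Over all genes these shares were 0.517% and 0.309%, but the 10 were picked from the same contrast.

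Programmes of the tumour cell and of the ESK981 target pathway lay nearer to the all-gene median. Under the other scalings, the medians of the stress, unfolded protein, autophagy and cholesterol lists stayed below 0, the highest being -0.07 for autophagy. All 14 integrated stress response genes lay below 0 (median -0.38), 2 of them nominally. These were Ddit3, encoding CHOP, at -0.84 ± 0.28 and its regulator Atf4 at -0.52 ± 0.20. Combination tumours 1R, 2R, 3L and 5R lay below the ESK981 tumour median in all 14 genes and 3R in 12. Combination 4R lay above it in all 14, 1L in 11 and 4L in 10. Without combination 5R, 1 of the 14 was nominally lower (median -0.29). All 9 unfolded protein response genes lay below 0 as well (median -0.32, with Pdia4 at -0.37 and Dnajb9 at -0.52 nominal). Autophagy genes had 6 of 18 nominally lower (median -0.20), among them the cargo receptor Sqstm1 at -0.44 ± 0.15 and Wipi1 at -0.39. Without combination 5R, 1 of the 18 autophagy genes was nominally lower (median -0.11) and none of the unfolded protein response (median -0.17). Under the other scalings these counts were 4 and 3 for autophagy and 0 for the unfolded protein response. The PIKfyve complex had 0 of 9 nominal (median -0.09), and Pikfyve itself was 2.56 ± 0.222 and 2.64 ± 0.721 FPKM (0.00 ± 0.17, 95% interval -0.35 to 0.36). Lysosomal genes had 1 of 19 nominally higher (median 0.10), Atp6v0d2, and Gpnmb, a lysosomal stress marker, was 0.29 ± 0.26. Cholesterol synthesis had 0 of 15 nominal (median -0.31). Without ESK981 1R and 2R, 13 of 15 were nominally lower (median -0.61), against 982 of 15846 over all genes. Without combination 5R the cholesterol median was -0.13.

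Proliferation genes all lay above 0, 21 of 21, but none was nominal (median 0.23). This direction rested on ESK981 1R and 2R, without which the median was -0.61 and 16 of 21 were nominally lower. Over all genes, 982 of 15846 were nominally lower in that setting, which dropped ESK981 mouse 2 and left mouse 1 with only 1L. Mki67 was 14.7, 2.70, 30.5, 28.2 and 31.0 FPKM by mouse in ESK981 and 26.2, 14.2, 17.8, 23 and 12.8 in the combination. All 5 combination mice lay below the 3 highest ESK981 mice. The fold change of 0.27 ± 0.45 became -0.30 without ESK981 mouse 2 and -0.68 without tumours 1R and 2R. MYC-driven ribosome biogenesis (0 of 14, median -0.09), nuclear oxidative phosphorylation (0 of 14, -0.13) and glycolysis (1 of 12, -0.08) had medians near that of all genes, and these 3 medians lay between -0.02 and 0.05 under the other scalings. The glycolysis exception was the lactate exporter Slc16a3, 0.74 ± 0.22 without overlap. Among p53 targets 1 of 12 was nominally higher and 3 lower (median -0.09). Hypoxia targets had 1 of 11 (Egln3, 0.75), NRF2 targets 1 of 6 (Hmox1, 0.70) and immediate early genes 1 of 13 (Egr2, 0.47). The IGF list had 2 of 7 nominally lower, Igfbp5 and Igfbp3 (-0.71). The urea cycle list had 1 of 7 lower, Cps1, and 2 higher, the arginine transporter Slc7a2 (1.45) and Ass1 (0.87), so its median of 0.02 hides opposite members.

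**Figure D4:**
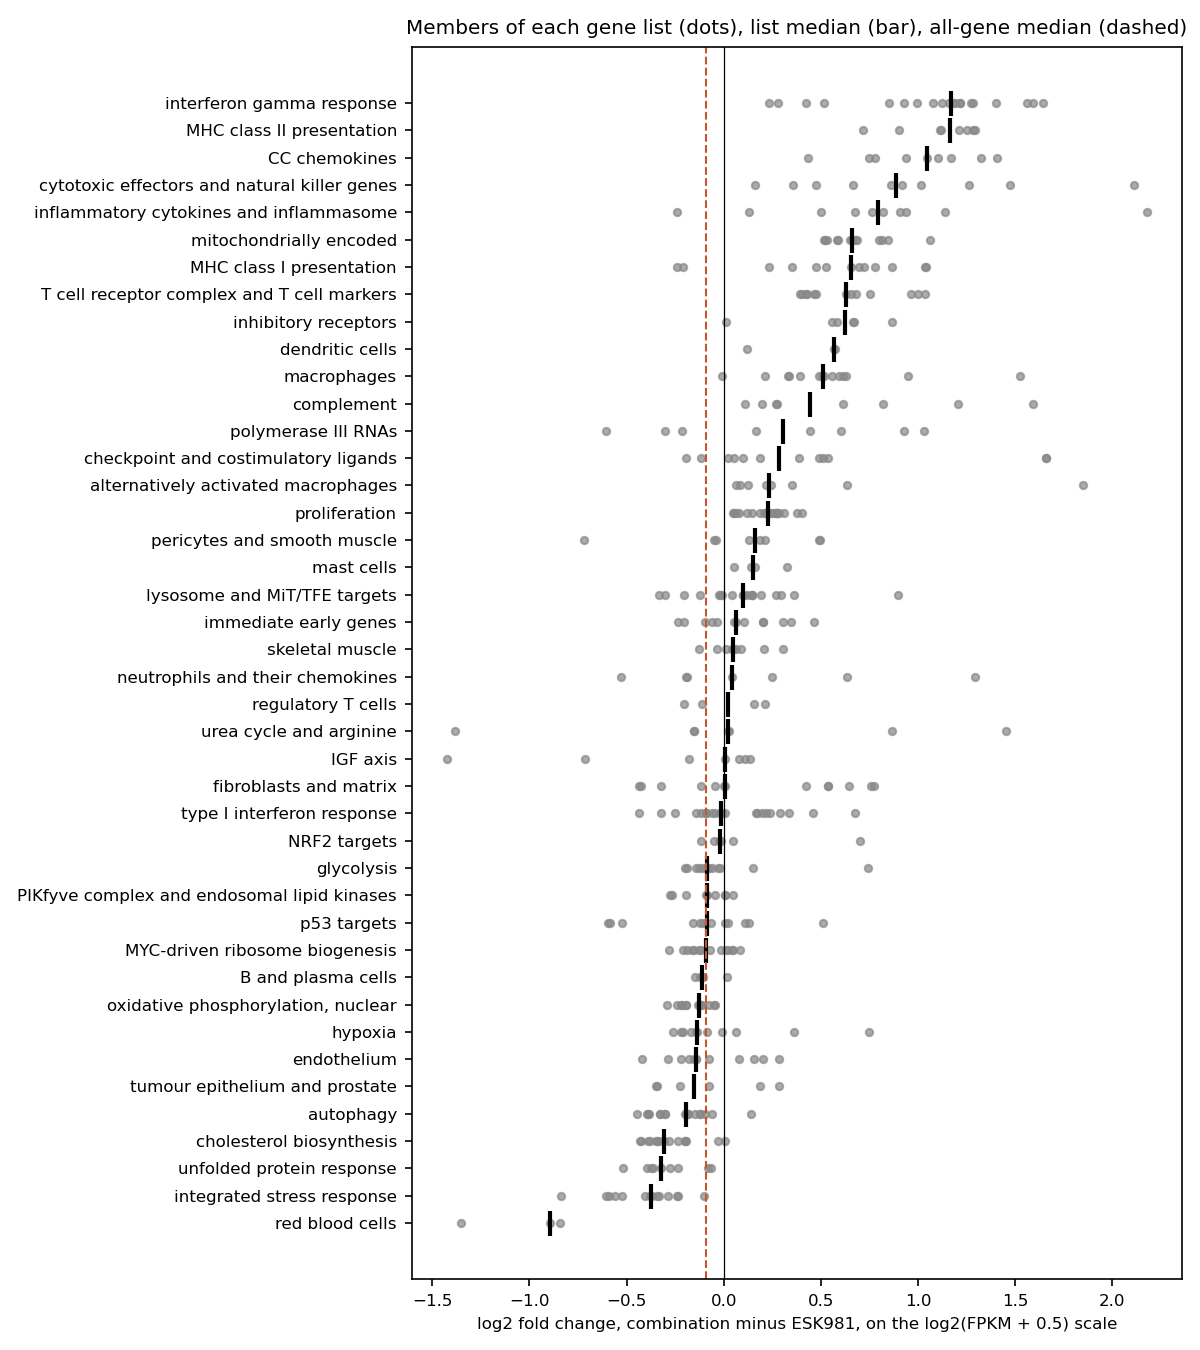
Log2 fold change (x axis) of each tested member (dots) of the 42 gene lists with at least 3 members tested, with the list median (bar) and the median of all genes (dashed, -0.09). Interferon gamma response, MHC class II and CC chemokines have medians above 1, and the integrated stress response and red blood cells lie lowest.

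Vessels and stroma gave little direction. Endothelial genes had 0 of 12 nominal (median -0.14), with Kdr, the main VEGF receptor, at -0.18 ± 0.19 and Pecam1 at -0.14 ± 0.26. Pericyte genes had 1 of 8 nominally lower, Rgs5 at -0.72 (median 0.16), and fibroblast genes 0 of 13 (median 0.01). The epithelial list had 0 of 6 nominal (median -0.15), with Krt8 at -0.35 ± 0.41. All 3 tested red blood cell genes were nominally lower (median -0.90), but 0 were without ESK981 1R and 2R (median -0.24), and in left-flank tumours the median was 0.10. Hba-a1, an alpha globin, was 17.1, 17.7, 9.93, 9.99 and 8.98 FPKM by mouse in ESK981 and 5.99, 4.10, 4.74, 9.38 and 4.70 in the combination. Summed over its 5 genes, the red blood cell list spanned 6.50 to 110 FPKM in ESK981 tumours and 5.68 to 39.0 in combination tumours, and its part in other values was not tested. Skeletal muscle had 0 of 9 nominal (median 0.05), polymerase III RNAs 1 of 8 (0.31), keratinocytes and adipocytes had 2 and 1 members tested, none nominal, and no Schwann cell gene passed the filter on low values.

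For single genes, the exact two-sided permutation test over mice has 252 splits and cannot give a p below 0.00794. Of 28 panel genes tested, 5 reached that smallest value (Ccl5, Nos2, Gzmb, Pdcd1 and Cxcl10), and 18 had an exact permutation p under 0.05 before adjustment. The panel was chosen with earlier results of these data known. This test was not run over all genes, so these counts have no all-gene share to be read against. H2-K1 gave an exact permutation p of 0.0873, and Kdr, Pecam1, Mki67, Pikfyve, Arg1, Adgre1, B2m, Gpnmb and Krt8 gave larger ones, from 0.262 to 0.984.

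Leaving out libraries changed how many genes passed. Without combination 1L, 1 gene was called. Without 1L of both groups 41 were called, 33 higher and 8 lower, and without combination 1L and 5R 292 were called, 282 higher and 10 lower (limma). Of 15846 genes tested, the 41 included Ccl5, Gzmb, Prf1, Cd3e, Cd274, Nos2, Gbp2 and Igtp, and 4 of the 20 interferon gamma genes. The 292, of the same 15846, included 15 of those 20 and all 8 MHC class II genes. These libraries were chosen after their values were seen, because they resembled the other group or stood apart, so the counts describe these tumours and are not a test. Combination 1L and 5R had the lowest list means of their group for interferon gamma (1.59 and 1.94) and MHC class II (2.61 and 3.07). Leaving them out therefore raises both lists by construction. Leaving out ESK981 1R and 2R lowered the interferon gamma median to 0.88, with 12 of 20 nominal, below the MHC class II (1.02) and CC chemokine (0.96) medians. It also took the nominal genes of MHC class I from 9 to 0, of the T cell list from 10 to 5 and of dendritic cells from 2 to 0. This setting dropped ESK981 mouse 2 and left mouse 1 with only 1L, the ESK981 tumour with the highest interferon gamma mean (2.64). Over all 15846 genes, 360 were nominally higher and 982 lower in it.

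The other 2 groups place these levels. Ccl5 was 18.9 ± 7.53 FPKM in vehicle mice and 16.6 ± 2.53 in anti-PD-1 mice, Gzmb 1.94 ± 0.516 and 1.51 ± 0.739, and Cd274 9.65 ± 4.23 and 7.07 ± 1.89 (SD, n = 5 each). The combination means of 16.3, 2.15 and 8.76 thus lay near both, and the ESK981 means of 2.37, 0.315 and 1.93 well below. Against vehicle, Ccl5 in ESK981 fell by 2.47 (log2, limma adjusted p = 0.00193), while the combination differed from vehicle by -0.36 (limma adjusted p = 0.756). Igfbp5 lay the other way, at 78.7 ± 40.5 in vehicle, 328 ± 225 in ESK981 and 93.6 ± 25.9 in the combination. These comparisons share samples, and 9 of the 10 vehicle tumours name another flow cell, so they are given side by side and not as support for each other. Median list values show the same order: the interferon gamma list was -1.55 in ESK981 against vehicle, -0.40 in the combination against vehicle and -0.36 in anti-PD-1 against vehicle. RNA composition differed too. The mitochondrial list was -1.41, -0.83 and -0.62 in the same comparisons. Ribosomal-RNA-like genes took a median of 18.5% of fragments in vehicle and 7.34% in anti-PD-1 tumours. In ESK981 and combination tumours the medians were 3.49% and 5.79%. The part of RNA composition in these levels was not tested.

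**Figure D5:**
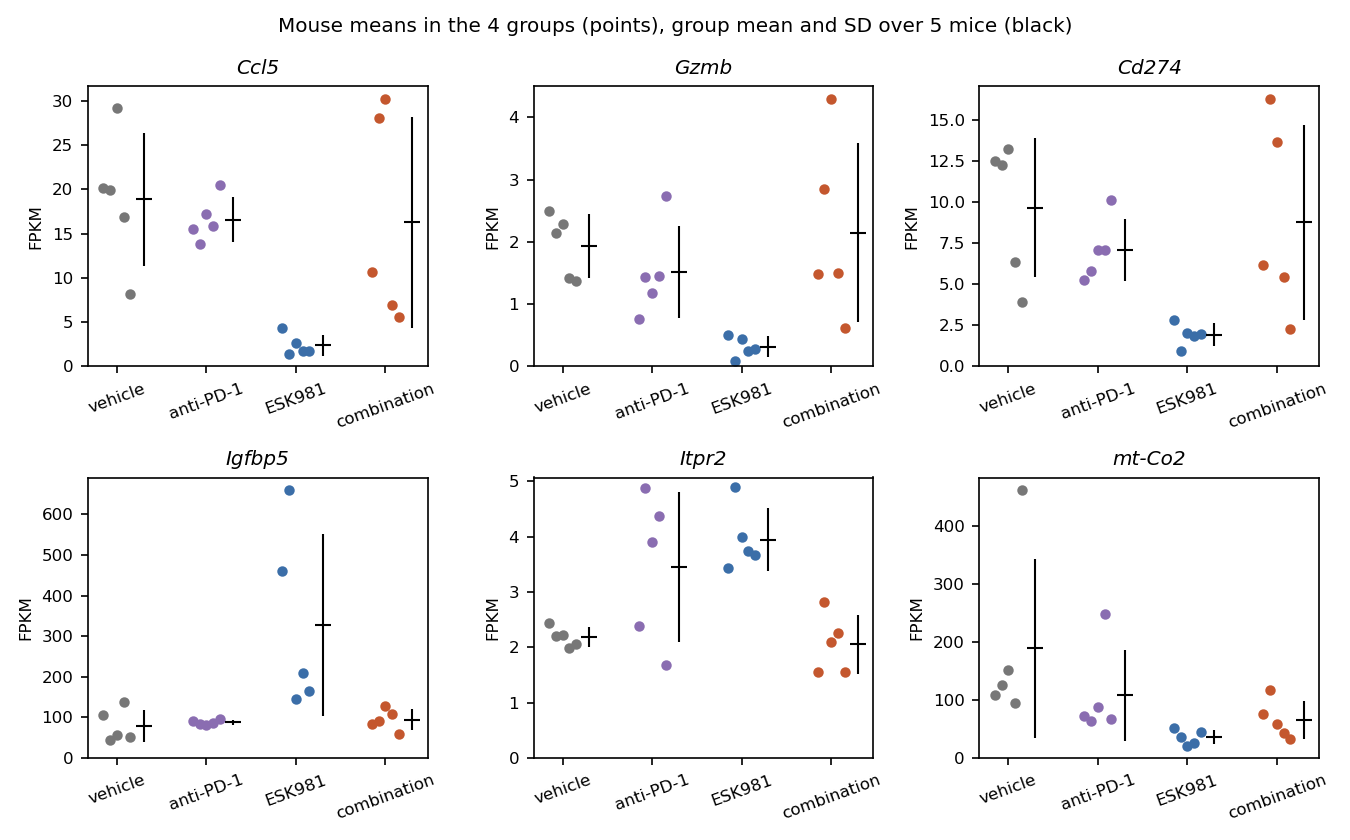
Mean FPKM of each mouse (points) in the 4 groups, with group mean and SD (black, n = 5). For Ccl5, Gzmb and Cd274 ESK981 mice are low and combination mice spread widely, and for Igfbp5 and Itpr2 every ESK981 mouse lies above every combination mouse. The mitochondrial mt-Co2 is 35.7 FPKM in ESK981 and 65.1 in the combination on average.

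Whether anti-PD-1 made a different change on ESK981 than alone was tested as an interaction, the combination minus ESK981 less the anti-PD-1 minus vehicle difference. It was called for 4 genes (0.0189% of genes higher, 0.00631% lower), all noncoding or predicted: Scarna17 (3.12 ± 0.47, limma adjusted p = 0.022), Gm15466 (1.64), Gm23547 (3.92) and Gm23134 (-1.62). In all 4, vehicle stood apart from the other 3 groups, and since 9 of its 10 tumours name another flow cell, flow cell and treatment cannot be told apart here. Scarna17, a small nuclear body RNA, was 136 ± 13.1 FPKM in vehicle and 13.8 to 23.9 as group means elsewhere. No protein-coding gene passed in this fit. The count turned on the settings, being 60 after median-of-ratios scaling, 129 after scaling to protein-coding genes, and 0 without a filter on low values or in right-flank tumours. Ccl5 gave 1.96 ± 0.59 (limma adjusted p = 0.145), Nos2 2.86 ± 0.66 (0.0924) and Cps1 -1.68 ± 0.44 (0.116).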

How the data were processed

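RNA was sequenced from the tumours after ribosomal RNA depletion. The authors deposited 1 table of FPKM per gene, made with STAR and featureCounts on mm10 per the submitters' processing notes. The sources used here do not state tool versions, annotation or use of strand, so overlapping and antisense genes and near-identical copies are uncertain. Columns were matched to samples by description, with 0 unmatched. Numbers of fragments were recovered from low FPKM values and GENCODE M21 exon lengths (41427 of 48795 identifiers matched with version), and 100% came out whole within 0.01. Precision for low genes follows from them, at 9.90e+06 to 3.24e+07 fragments per tumour.

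Each mouse had 1 value per gene, the mean log2(FPKM + 0.5) of its tumours. The 15846 genes (11639 protein-coding) that reached an FPKM of 0.5 in 5 or more tumours entered a linear model of 4 groups in limma 3.58.1 (R 4.3.3) with a mean-variance trend, two-sided, Benjamini-Hochberg adjusted, called at an adjusted p under 0.05. The script was tested on simulated data. No count model was fitted because FPKM are not counts. "Nominal" means an unadjusted p under 0.05. The p-values measure the spread between mice of this 1 experiment. Named genes were called genes and, up to 10 per direction, protein-coding genes of smallest p whose higher group averaged 1 or more on the log2 scale and whose symbol is no clone or predicted name, the 3 members of smallest p of each list, and 29 panel genes. Values of a few items among these are not reported here. The 45 gene lists, the members and the rules were chosen with earlier results of these data known. Alternatives were the pseudocount, filter, scaling, flank, mouse block and left-out mice and tumours.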

Additional observations from a re-analysis of the deposited data

Results flagged for a closer look

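Within groups of 5 mice, Dixon's test at its 95% critical value of 0.71 was applied to the mouse means of 44 named genes in both groups. It marked 5 of 88 groups, and chance marks about 1 in 20. In ESK981, mouse 2 lay far below the others for Nos2 (0.197 FPKM), Srgn (3.07 FPKM) and Cd274 (0.914 FPKM). Tumour 1R of ESK981 mouse 1 was also low for Nos2, as given above, but its values were averaged with those of 1L. Cd274 had 128 fragments of 3.24e+07 in 1R and 80 of 2.42e+07 in 2R. In the combination, mouse 5 lay far below the others for Kdr (0.526 FPKM) and Pikfyve (1.37 FPKM). Both mice gave a single tumour, ESK981 2R, which has low proliferation genes, and combination 5R, which has the most ribosomal-RNA-like sequence. The part of either measure in these values was not tested.

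The interaction test called Scarna17 (3.12), Gm15466 (1.64), Gm23547 (3.92) and Gm23134 (-1.62), all on the log2 scale. This contrast uses vehicle, of which 9 of 10 tumours name another flow cell, so flow cell and treatment cannot be told apart.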

How the results depend on the processing

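In the comparison of the combination with ESK981, 0 genes were called in all 23 alternatives listed first. These varied pseudocount, filter, scaling, trend, flank, block and left-out mice or tumours. Their smallest limma adjusted p ran from 0.069 (without combination 5R) to 1. Leaving out combination tumour 5R and leaving out combination mouse 5 are the same fit, counted under both names, since that mouse gave a single tumour. Alternatives added after seeing the data gave 1 gene without combination tumour 1L, 41 without 1L of both groups and 292 without combination tumours 1L and 5R. Leaving out a mouse gave 685 to 2166 genes at an unadjusted p under 0.05 (1226 with all mice), and no filter on low values gave 2003, the mouse block on single tumours 788 and left-flank tumours 161. Over 44 single genes (the 10 of smallest p on each side and the panel, not other list members), 18 of 1009 values under those alternatives changed sign. The genes were Arg1, Kdr, Krt8, Mki67, Pecam1 and Pikfyve. Over 28 alternatives, with the added ones, Krt8 ran from -0.57 to 0.55 and Mki67 from -0.68 to 0.57.

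The interaction, called for 4 genes, was called for 1 with a pseudocount of 0.1, 6 with a pseudocount of 1 or with the mouse as a block, 0 without a filter, 60 with median-of-ratios scaling, 129 rescaled to protein-coding genes, 0 in right-flank and 13 in left-flank tumours, 1 without the trend, 1 without ESK981 tumours 1R and 2R and 35 without combination tumour 5R. Leaving out a mouse gave 0 to 35. Among added alternatives it was 76 without combination tumour 1L, 1 without ESK981 tumour 1L, 79 without both, 373 without combination tumours 1L and 5R, and 0 over protein-coding genes alone. The cause was not tested.

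Scaling moved the median over all genes from -0.09 to -0.01 (median of ratios) and 0.01 (protein-coding genes), and nominal calls from 544 higher and 682 lower to 1000 and 628, or 954 and 484. No paired analysis was possible because mouse numbers pair nothing across groups.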
